A study of Bos taurus with 2 samples.

Results

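Among the autosomal 1 kb windows of the bovine genome, 1281 combined very deep coverage with low methylation in the sperm DNA of both monozygotic twin bulls. They were chosen by their measured values: at least 3 CpG sites, a mean of at least 200 reads per CpG site in each of the 2 libraries, and a methylation level under 30% in each. The level of a window is the number of methylated reads over all reads, summed over its CpG sites. The 1281 windows were 0.0561% of the 2284760 autosomal windows with 3 or more CpG sites and held 45113 sites, or 0.173% of the autosomal CpG sites. They took 5.41% of the autosomal CpG reads in Bull1 and 5.79% in Bull2. Depth and low level were the selection itself and are given below as descriptions.

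The study compared the sperm methylomes of monozygotic (MZ) twin Holstein bulls, Bull1 and Bull2, which share their genotype. According to the study, sperm motility was significantly better in Bull1 on average over the months recorded. By period, it reports a significant difference only early in semen collection, well before the semen sequenced here was taken. Sperm DNA from frozen-thawed semen of each adult bull was sequenced once by whole-genome bisulfite sequencing (WGBS), in which bisulfite converts unmethylated cytosines so that they are read as thymine, and no treatment or genetic alteration was applied to either bull. Each bull gave 1 library, so no difference below has a replicate check. The tests compare 2 libraries, not animals or fertility classes, and intervals cover counting error at most. A read is counted at each CpG site it covers, so the intervals can be too narrow even for that. Bull1 had 544424736 reads at 27203217 listed CpG sites and Bull2 had 499287038, a mean of 20.01 and 18.4 reads per site. The study reports the reverse order, with more unique mapped reads and a higher mean depth in Bull2. The reason was not tested.

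Mammalian genomes hold satellite DNA, arrays of a short or long unit repeated head to tail, which cattle carry in unusual amounts near their acrocentric centromeres. An assembly holds far fewer copies of such units than the chromosomes do, so reads from many copies pile up on the few that are placed. In somatic cells satellite CpG sites are largely methylated by the DNA methyltransferases, whereas in male germ cells of several mammals many satellites carry little methylation. The copies of one repeat share their sequence, and so the distances between their CpG sites. These distances were used here to group the windows, because the deposited files hold positions and counts but no bases. A cytosine that has become thymine in some copies of a repeat is read as unmethylated after bisulfite treatment, and in these files such copies and unmethylated ones cannot be told apart. Positions are those of the build UMD3.1 as the files list them.

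At the limits of the selection the values ran on without a break. A window of 5 CpG sites on chromosome 17, chr17:50939001-50940000, had a mean of exactly 200 reads per site in Bull1 and 219.6 in Bull2, and was kept at 21.9% and 18.8%. A window on chromosome 5, chr5:114155001-114156000, had 199.4 and 208.9 reads per site and was left out at 25.02% and 25.2%. At the level limit chr27:28850001-28851000 was kept at 28.9% in Bull1 and 29.98% in Bull2, whereas chr28:2644001-2645000 was left out at 29.5% and 30.004%. Of the members, 68 had between 200 and 210 reads per site in their shallower library, 57 had a level of 28% or more in at least one library, and 8 held exactly 3 CpG sites. A further 189 windows under 30% in both bulls passed the depth limit in one library only. The level of all deep windows peaked between 20% and 25%, with 488 windows there, 204 between 25% and 30%, 99 between 30% and 35% and 74 between 35% and 40%. The numbers were higher again from 40% to 50%, with 94 windows in each step of 5 points. The limit at 30% therefore cut the upper side of the main peak, and 637 equally deep windows lay at or above it in at least one library.

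The sites of these windows had a partial and uneven methylation. Summed over all of them, 5677506 of 28617973 reads were methylated in Bull1, a level of 19.8% (95% exact Clopper-Pearson interval 19.82 to 19.85). In Bull2 5644586 of 28128981 reads were methylated, a level of 20.1% (20.05 to 20.08). Over all autosomal windows with a mean of at least 5 reads per site the same sums gave 75.4% and 71.2%. Single windows ranged from 0.743% to 29.9% in Bull1 and from 0.607% to 29.98% in Bull2, with medians of 20.2% and 20.3%. The median level of the 41958 member sites covered by 5 or more reads in each library was 16.0% in Bull1 and 16.7% in Bull2. The quartiles of these sites in Bull1 were 9.52% and 25.5%. Only 10.9% of the sites were under 5% in Bull1, and 4.83% were at 50% or above. The median standard deviation between the sites of one window was 11.5 percentage points in Bull1. The window levels, each a sum over many sites, had a standard deviation of 5.49 points.

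The windows were rich in CpG sites, with a median of 32 per window and quartiles of 23 and 49, whereas autosomal windows as a whole had a median of 8. Other windows of low methylation were CpG-rich too, with a median of 28 at ordinary depth and 51 in the 1361 of them with at least 100 reads per site in both libraries. Of these 1361 windows 1098 (80.7%) carried a run of CpG distances of one of the 4 largest families described further on, 708 of them one of the second family, so they are in large part copies of the same repeats. The depth of the 1281 members ranged from 200 to 12604 reads per site in Bull1, with a median of 416.8, and from 200.2 to 12222 in Bull2, with a median of 399.4. The deepest was chr1:61604001-61605000, where 25 CpG sites had a mean of 12604 reads in Bull1 and 12222 in Bull2. Its level was 20.6% in Bull1 and also 20.6% in Bull2. The window before it, chr1:61603001-61604000, had 11868 and 11165 reads per site and 17.5% and 17.6%. The third in depth was chr24:19270001-19271000, with 8524 and 8018 reads per site and 21.8% and 21.5%. All 3 lay within 0.25 points between the bulls.

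Members were found on all 29 autosomes, both as single windows and in arrays. Joining members no more than 5 windows apart gave 525 clusters, 314 of them a single window. The 3 largest clusters held 324 members, or 25.3%. They were chr1:145295001-145452000 with 141 members, chr29:30225001-30385000 with 139 and chr7:56568001-56623000 with 44. Their median levels were 20.7%, 21.2% and 22.8% in Bull1 and 21.2%, 21.4% and 23.6% in Bull2. The longest unbroken row was 26 windows at chr29:30243001-30269000. Chromosome 29 carried 17.9% of all member reads of Bull1 and chromosome 1 carried 16.1%. Windows within 1 Mb of a chromosome end made up 7.65% of the members and 2.37% of all autosomal windows.

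To ask whether the windows were copies of the same sequences, runs of 6 consecutive distances between CpG sites were compared, read in either direction. Of the 1281 windows, 1066 (83.2%) shared at least one identical run with another member, and linking them gave 17 families. The 4 largest families held 560, 286, 156 and 34 windows, and 30 windows fell into 13 families of 2 or 3 windows. The other 215 windows shared no run, 40 of them because they held too few sites to have one. Thus the repeat-like character was measured for 1066 windows and not shown for the rest. The same share was not measured among windows outside the members, so it cannot be called particular to them. The third family was a chain of several groups: when 10 equal distances were required it fell into groups of 34, 31, 31 and 7 windows, with its other windows in smaller groups or alone. Of the first family 399 of 560 windows stayed in one group, of the second 273 of 286 and of the fourth all 34. A group of 7 windows that came off the first family had median levels of 8.60% in Bull1 and 9.34% in Bull2. The third family is called the mixed family here, and the others are called by a distance that recurred in them: the most frequent distance between 20 and 400 bp for the first, and the most frequent between 600 and 5000 bp for the second and the fourth. No sequence or repeat annotation of this build was used, so none of them is given a satellite name.

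**Figure D1:**
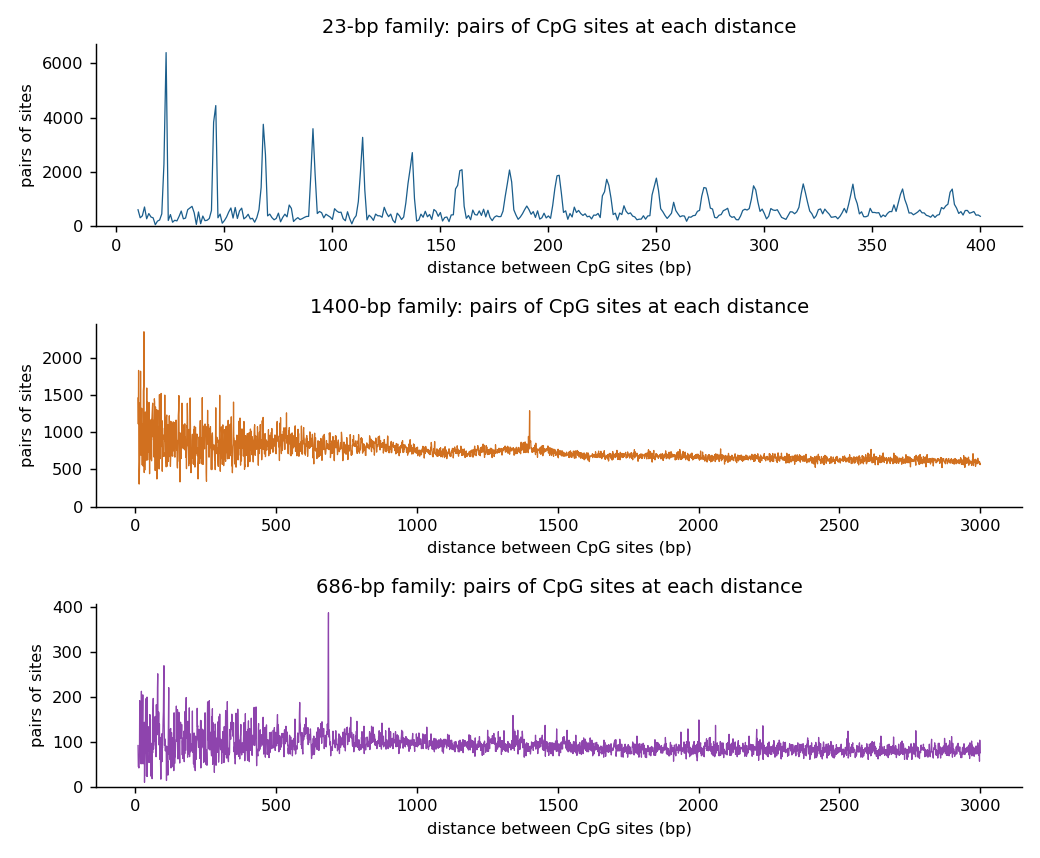
Number of pairs of CpG sites (vertical axis) at each distance in bp (horizontal axis) from a site in a member window to a later site, inside that window or beyond its end, for the 23-bp, 1400-bp and 686-bp families. The 23-bp family has evenly spaced peaks from 23 bp on, while past 600 bp the others peak at 1400 bp (1287 pairs) and 686 bp (388 pairs), besides irregular peaks at short distances.

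The 23-bp family was a short-period repeat. Its 560 windows on 23 chromosomes had 6386 pairs of CpG sites exactly 23 bp apart, 17.4 times the median of the surrounding distances, and further peaks at 46, 68, 91 and 114 bp. It filled the 3 largest clusters, with 138 of the 141 members on chromosome 1 and 136 of the 139 on chromosome 29. It took 16337446 of the 28617973 member reads of Bull1. Its level was 21.5% (21.50 to 21.54) in Bull1 and 21.8% (21.73 to 21.77) in Bull2. Following the best supported run of distances around until it met itself gave 10 CpG places over 251 bp. The median level over members at these places ranged from 12.8% to 30.8% in Bull1 and from 13.3% to 30.4% in Bull2.

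The 1400-bp family was a long-period repeat spread over 27 chromosomes. Its windows had a median of 58 CpG sites and were shallower than those of the 23-bp family, with a median of 294.6 reads per site in Bull1 against 556.2. Short distances were the most frequent, with 2348 pairs at 31 bp, and past 600 bp the leading distance was 1400 bp, with pairs 1.7 times as frequent as at surrounding distances. The run of distances closed on itself at the same length, 1400 bp, with 87 CpG places. Across these places the median level over members went from 2.85% at 158 bp from the start of the map to 52.4% at 1190 bp in Bull1. In Bull1 30 places were under 10% and 11 were over 30%. Neighbouring places could differ several times over: the place at 115 bp had 11.3% and that at 119 bp had 51.96%, followed by 10.9% at 127 bp. The interquartile range over the members at one place was 3.77 points in the median. It was wider at some places, up to 21.5% to 33.8% at 475 bp and 23.4% to 33.8% at 643 bp in Bull1. Between the bulls the medians of the 87 places had r = 0.992, a description over places that share reads and libraries.

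The 686-bp family comprised 34 windows on 8 chromosomes and showed the same kind of pattern. Pairs at 686 bp were 3.63 times as frequent as those around, and the run closed at 686 bp with 41 places. Place medians went from 4.87% at 261 bp to 40.04% at 343 bp in Bull1 and from 5.85% to 41.0% in Bull2, with r = 0.992 between the bulls.

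**Figure D2:**
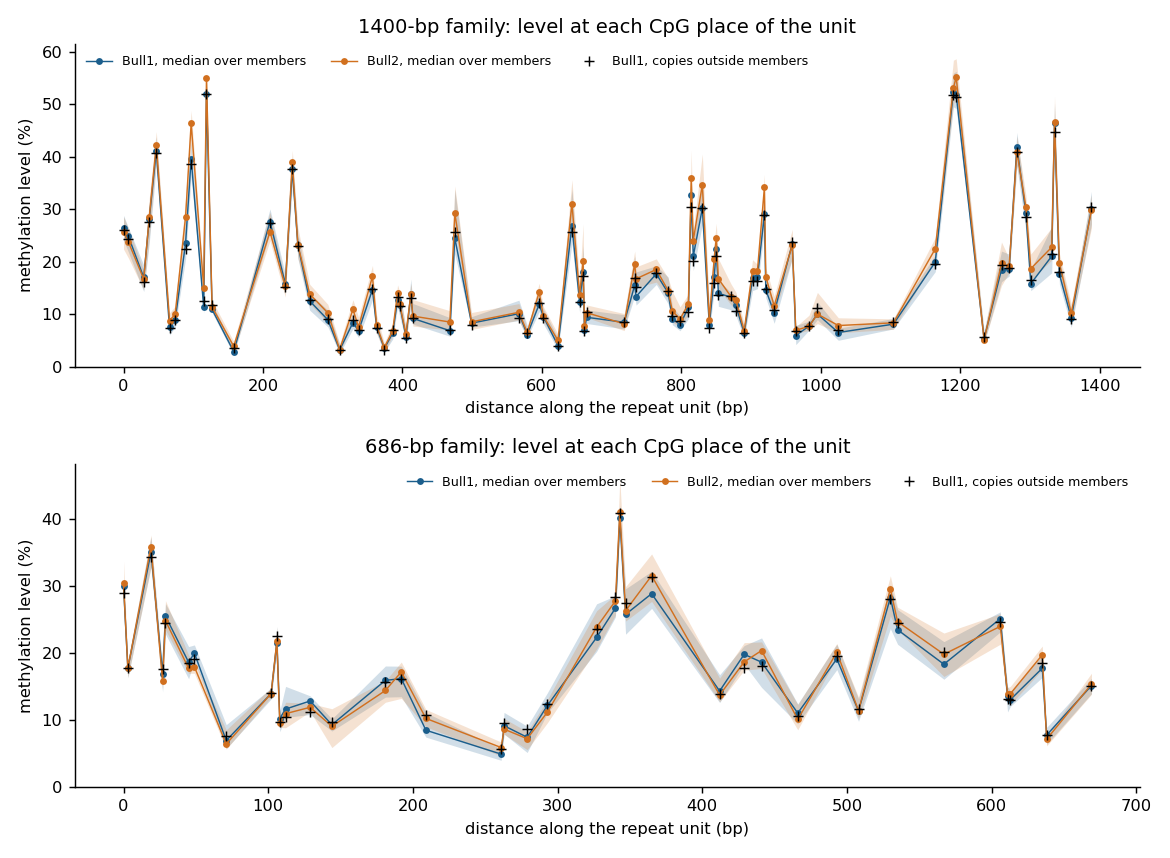
Methylation level (%) at each CpG place against its distance (bp) from the start of the unit map, for the 1400-bp and 686-bp families. Lines join the medians over member windows, shaded bands are the interquartile range over members, and crosses are summed reads of copies outside the members in Bull1. Places over 50% and places under 10% both occur along the 1400-bp unit, and lines, bands and crosses follow each other closely.

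Copies outside the members were found by their CpG distances, with no limit on their level, although the runs searched for came from the members. The runs of distances of the 1400-bp family that were present in at least 10 members occurred in 4060 other autosomal windows. Of these, 3976 were at ordinary depth, with a mean of at least 5 reads per site in both libraries and below the depth limit in at least one, and 1 was at or above it in both. They had a median depth of 53.6 reads in Bull1 and 55.9 in Bull2, and 98.1% of them were under 30% in both bulls. Their summed level was 17.0% in Bull1 and 18.5% in Bull2. At the 87 places of the map these outside copies ranged from 3.18% to 51.9% in Bull1, and their levels had r = 0.998 with the member medians. For the 686-bp family 177 outside windows at ordinary depth gave 18.2% and 17.7%, 97.2% of them under 30%, and r = 0.992 over 41 places in Bull1. A read from a copy that is not in the assembly may be placed at a near-identical copy that is, so windows of a family do not measure separate loci with certainty; the extent of this was not tested.

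The level of outside copies varied little with depth in the 1400-bp family and more in others. Outside copies with 5 to 20 reads per site in the shallower library had 17.3% in Bull1, and those with 100 to 200 reads had 17.2%. Windows with runs of the 23-bp family had 56.2% at 5 to 20 reads, 27.1% at 20 to 50 reads and 27.7% at 100 to 200 reads. Those with runs of the mixed family had 47.5% at 5 to 20 reads and 13.5% at 100 to 200 reads. Of the outside windows of these families at ordinary depth 61.7% and 67.3% were under 30% in both bulls. A further 104 outside windows of the 23-bp family passed the depth limit in both libraries, at 34.5% in Bull1 and 33.6% in Bull2. In the mixed family 15 did so, at 43.8% and 38.5%. The member levels of these 2 families therefore describe only the deep copies kept by the level limit.

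**Figure D3:**
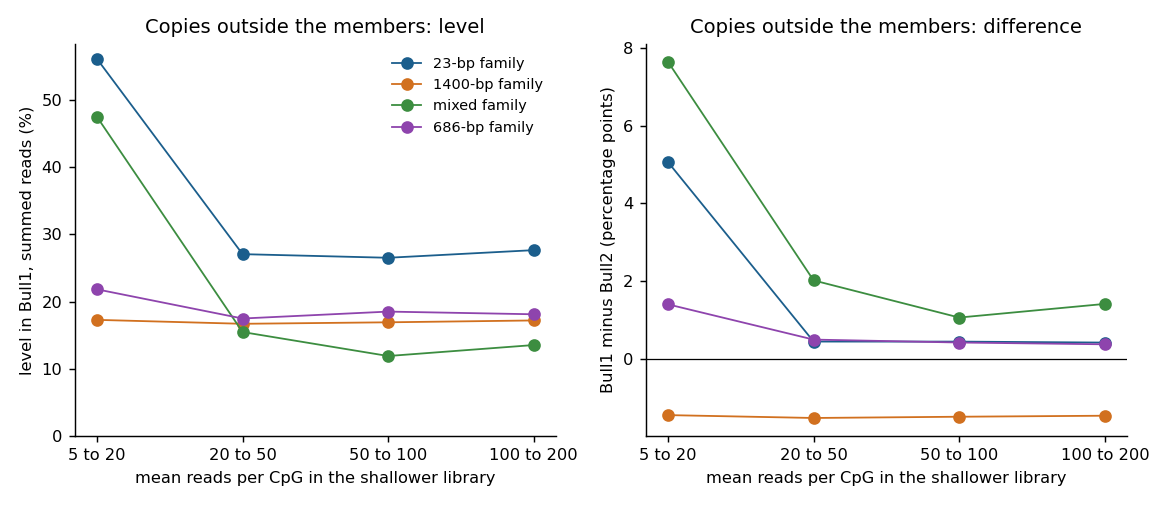
Windows outside the members that carry the runs of each family, by mean reads per CpG in the shallower library. Left, level in Bull1 from summed reads (%); right, Bull1 minus Bull2 (percentage points). The 1400-bp family stays at 16.7% to 17.3% and between -1.52 and -1.44 points at every depth, while the 23-bp and mixed families are at 56.2% and 47.5% in the shallowest class.

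The mixed family ranged widest in level, from 0.743% to 29.7% in Bull1. Of its groups with 10 equal distances, that of 34 windows on 13 chromosomes had a median level of 23.4% in Bull1 and 20.9% in Bull2. One group of 31 windows had 12.7% and 10.9%, the other group of 31 windows had 1.77% and 2.34%, and the group of 7 windows had 22.3% and 20.2%. Its deepest window, chr4:81711001-81712000, had 14.9% and 13.2%. Thus 3 of the 4 groups were higher in Bull1 in the median and the least methylated one was lower.

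A small group of members was almost free of methylation. In 23 windows both bulls were under 5%, and summed over them 9065 of 700030 reads were methylated in Bull1 (1.29%) and 10412 of 696260 in Bull2 (1.495%). They had a median of 66 CpG sites per window, and 22 of the 23 belonged to the mixed family. In all, 16 of the 23 lay in the first 3 Mb of chromosome 14. That stretch was rich in deep windows of every level. It held 161 of them, 113 at or above 30% in at least one library, and 48 of the 58 members of chromosome 14. The lowest in mean level was chr10:104032001-104033000, with 0.846% in Bull1 and 0.607% in Bull2 over 39 sites. It was followed by chr10:104228001-104229000, with 0.743% and 0.767% over 87 sites. A window on chromosome 17, chr17:51251001-51252000, had 1.16% and 0.666% and shared no run with any other member. At the other end of the range, chr4:57434001-57435000 of the 23-bp family had 29.7% in both bulls. Members with few CpG sites lay, among other places, at chr17:50866001-50940000 in 3 clusters of 8, 10 and 9 windows. These windows had a median of only 8 to 8.5 CpG sites, up to a median of 1123 reads per site in Bull1, and median levels of 13.6%, 16.9% and 17.2%. The 215 windows without a shared run had a median of 10 CpG sites, so few sites were not particular to this stretch.

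The windows around the members were of mixed level. Non-member windows 1 kb away from a member had a summed level of 27.7% in Bull1 and 26.5% in Bull2, at a median depth of 73.6 and 71.8 reads per site. Farther away the summed level in Bull1 changed little, with 26.6% at 2 kb, 27.6% at 3 kb, 29.5% at 4 kb and 28.7% at 5 kb. The median over windows, in which each window counts once whatever its depth, was 22.4% at 1 kb, 33.0% at 3 kb and 65.9% at 5 kb in Bull1. The median number of CpG sites per window was 37 at 1 kb and 11 at 5 kb. Of the windows at 5 kb 35.4% were under 30% in both bulls.

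The twins were then compared in these windows. The summed level of Bull1 minus that of Bull2 was -0.228 points, an odds ratio of 0.986. The size rested on the weighting: the difference was -0.0618 points as a mean over windows and -0.364 points as a mean over sites. In all autosomal windows Bull1 was 4.17 points higher, an odds ratio of 1.24, in the 637 deep windows at 30% or above it was 1.45 points higher, and in the 59516 windows under 30% at ordinary depth the difference was -0.465 points. Of the members, 563 (43.95%) had the higher level in Bull1 and 718 the lower, whereas 79.6% of all windows were higher in Bull1. Windows under 30% at ordinary depth, which include 3901 outside copies of the 1400-bp family described above, lay nearer to the members. Of these windows 52.6% were higher in Bull1, with a median difference of 0.119 points, opposite in sign to that of their summed reads. Of the 1361 of them with at least 100 reads per site 31.3% were higher in Bull1. In 827 members (64.6%) the bulls were within 1 point of each other, against 11.6% of all windows, 35.8% of the windows under 30% at ordinary depth and 40.7% of the 1361 with at least 100 reads per site. A difference of more than 5 points in favour of Bull1 was found in 2 members, against 41.8% of all windows, and 0 members were lower in Bull1 by that much, against 4.2%. The selection bears on these counts, since a window under 30% in both bulls has less room for a difference. For comparison, of the 59516 windows under 30% at ordinary depth, with a median of 13.9 reads per site in Bull1, 6286 were higher and 3923 lower in Bull1 by more than 5 points, and of the 1361 with at least 100 reads per site 6 were higher and 2 lower. Those 1361 windows differ in depth and in makeup from the rest, and the parts of the 2 in these counts were not tested. Across the members the levels of the bulls had r = 0.974.

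**Figure D4:**
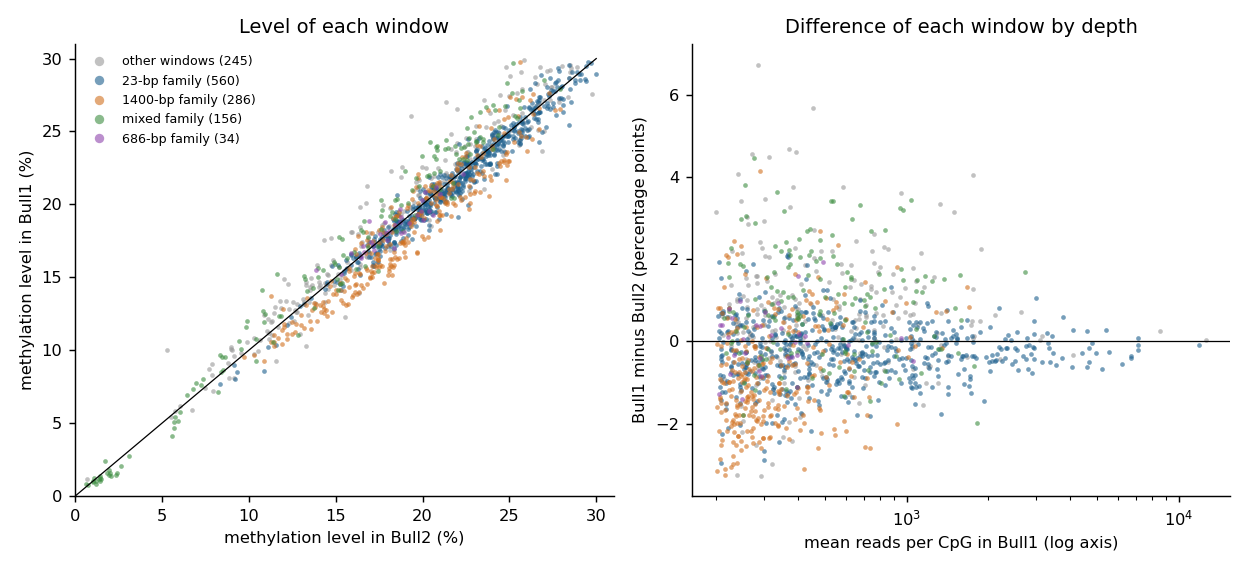
Left, methylation level (%) of each of the 1281 windows in Bull1 against Bull2 with the line of equality. Right, Bull1 minus Bull2 (percentage points) against mean reads per CpG in Bull1 on a log axis. Each point is 1 window, coloured by family. Most points of the 1400-bp family lie below the line and most of the mixed family above it, and the spread of the differences narrows as depth grows.

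The windows with the largest differences varied in their number of CpG sites. The largest difference was at chr6:6090001-6091000, with 591 methylated reads of 2269 in Bull1 (26.05%, 24.3 to 27.9) and 561 of 2905 in Bull2 (19.3%, 17.9 to 20.8). The next was chr14:739001-740000 with 27.0% and 21.3% over 4 CpG sites, and the third chr17:51419001-51420000 with 9.99% and 5.30% over 3 sites. In the other direction the largest was chr28:26962001-26963000, with 23.6% in Bull1 and 26.9% in Bull2 over 24 sites. The 4 other windows among the 5 lowest had differences of -3.24 to -3.099 points, and 3 of those 4 belonged to the 1400-bp family. The 5 windows highest in Bull1 held 3 to 21 CpG sites and the 5 lowest held 6 to 68.

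The direction differed among the families, each of which was described separately. In the 1400-bp family 215 of 286 windows were lower in Bull1, and the summed level was 18.5% (18.48 to 18.55) against 19.3% (19.25 to 19.32) in Bull2, a difference of -0.769 points. At 75 of its 87 places the member median was lower in Bull1, with a median gap of -1.02 points. The largest gap was at 97 bp, with 39.6% in Bull1 and 46.3% in Bull2. The outside copies, on whose level no limit was set, had the same direction: 3279 of 3976 windows (82.5%) were lower in Bull1, the difference of summed levels was -1.48 points, and 79 of the 87 places were lower. At 73 places both the members and the outside copies were lower in Bull1. At 97 bp the outside copies had 38.6% and 46.1%. Between copies of 5 to 20 and of 100 to 200 reads per site the difference stayed between -1.44 and -1.52 points. Both libraries enter each of these counts, so members and outside copies agree within a pair of libraries and not over animals.

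In the 23-bp family 371 of 560 windows were lower in Bull1, with a difference of -0.232 points in summed reads, but its outside copies at ordinary depth were 0.536 points higher. In the mixed family 111 of 156 windows were higher in Bull1, 12.6% against 11.6%, a difference of 0.972 points, and its outside copies were 1.64 points higher. In the 686-bp family 18 windows were higher and 16 lower, with 18.3% and 18.2%. Of the 215 windows without a shared run 149 were higher in Bull1, by 0.257 points in summed reads.

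**Figure D5:**
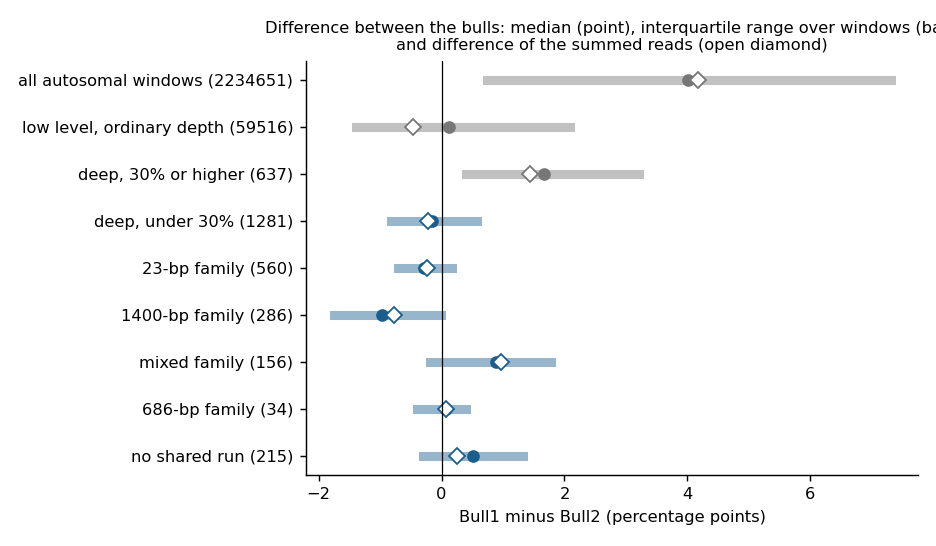
Bull1 minus Bull2 in percentage points for sets of windows, with the number of windows in brackets. Points are medians over windows, bars the interquartile range over windows, and open diamonds the difference of summed reads. The bar of all autosomal windows runs from 0.738 to 7.30 points, and that of the 1281 windows from -0.825 to 0.581 points.

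Read depth also differed between the families. Bull1 had 1.02 times the reads of Bull2 over the 1281 windows, against 1.09 times over all autosomal windows. The 686-bp family had 0.819 times, with fewer reads in Bull1 in 33 of its 34 windows, and the mixed family had 1.12 times, with more in 128 of 156. The median ratio of its windows was 1.15, against 1.13 over all windows, of which 1538928 of 2234651 had more reads in Bull1. The deepest window of the 686-bp family, chr13:49002001-49003000, had 1056 reads per site in Bull1 and 1399 in Bull2, at levels of 18.7% and 19.2%. Number of copies, library preparation and placement of reads cannot be told apart in these depths.

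Single sites were tested with a two-sided Fisher exact test on methylated and unmethylated reads, with Benjamini-Hochberg adjustment over all 23978882 sites that had 5 or more reads in each library. At a false discovery rate of 0.05, 7 of the 41958 member sites passed, 4 higher and 3 lower in Bull1, while 82 sites or 0.000342% passed in all. The study reports far more differentially methylated sites under the same named test and limits. The source of that gap was not tested. The 7 sites had from 1486 to 5812 reads in a library. Of the other calls 49 lay in the deep windows at 30% or above, and the rest included sites of ordinary depth. The 3 called sites at chr3:47217845, 47217847 and 47217863 were neighbours and were lower in Bull1, with 16.6%, 9.92% and 23.9% against 23.6%, 14.6% and 30.3%. They lie within 18 bp, so that the same reads can cover all 3, and they are not separate observations. The 4 sites higher in Bull1 lay on chromosomes 6, 9, 22 and 29. The largest difference among them was at chr6:19792923, with 850 of 2367 reads in Bull1 (35.9%) and 409 of 1486 in Bull2 (27.5%). The deepest was chr9:18067186 in the 23-bp family, with 31.02% and 26.1%, and the 6 other sites lay in windows of the mixed family. With both libraries thinned to at most 50 reads per site, 2.59% of member sites and 2.84% of all sites reached p = 0.05 or less in the exact test without adjustment, and 0 member sites passed the adjusted threshold, against 1 site in all.

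When the genome-wide odds ratio of 1.23 took the place of equality in the test, 859 member sites passed, 859 below that ratio and 0 above it. Over all tested sites 1209, or 0.00504%, passed below it, so members made up 859 of those 1209. The depth that defines the members also gives their sites more power in this test than ordinary sites have. Their selection for a low level bears on this count too. Summed reads gave an odds ratio of 0.986 in the members and 0.962 in windows of low methylation at ordinary depth, both below 1.23. The windows of low methylation at ordinary depth include outside copies of the same families, 3901 of them of the 1400-bp family. The comparison is thus partly one with copies of the same repeats. Whether the count sets the members apart from other windows of low methylation cannot be told from it. A comparison without these copies, or at equal level and depth, was not tested. In the 1400-bp family 1175 of 14327 sites reached p = 0.05 or less without adjustment in the Fisher test against equality, and 882 of them were lower in Bull1. That is 8.20% of its sites, against 7.47% of all member sites and 2.88% of all sites tested, most of which were far shallower. Without any difference, a share of up to 0.05 of sites reaches this limit, and a smaller share where reads are few. Neighbouring sites can share reads, so the sites counted are not separate observations. In the 23-bp family 1205 of 17631 sites (6.83%) did so, 800 of them lower in Bull1. In the mixed family it was 373 of 4452 sites (8.38%), 232 of them higher in Bull1, and in the 686-bp family 86 of 1602 (5.37%), 51 of them higher.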

How the data were processed

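Sperm DNA of Bull1 and Bull2 was sequenced by WGBS, 1 library each. According to the study's methods the authors trimmed reads, mapped them with Bowtie2 inside Bismark to the build UMD3.1, with default parameters, and removed duplicates. The study gives its yield as unique mapped reads. It does not otherwise describe how reads with several equally good placements were handled. The deposited counts per CpG site were methylated, unmethylated and total reads, with no normalization. The deposited fraction was computed by the authors as methylated over total reads and was only checked. Bisulfite conversion rates were not used here.

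Windows started at position 1 of each chromosome and were 1000 bp long. Counts were summed per window in Python 3.11.15 with numpy 2.4.6, scipy 1.17.1, pandas 2.3.3 and numba 0.67.0. Only windows with a mean of at least 5 reads per site entered the comparison with all windows. Families were linked by runs of 6 equal consecutive CpG distances in either direction, and unit maps were built by adding the distance found in most windows, with at least 10 windows at each step and sites of at least 50 reads. Outside copies were windows with a run present in at least 10 members. The Fisher test was tested on simulated data. The members, families and tests were chosen with earlier results of these data known. The windows named were the 5 deepest, the 5 lowest and highest in level, the 5 with the largest difference in each direction, those at the limits, the largest clusters, family representatives and called sites, of which the text gives the leading ones. The clusters on chromosome 17, the place at 97 bp and places 115 to 127 bp were chosen after their values were seen. Other limits on depth, level, CpG number and window start, other tests, thinned counts and other run lengths were tried. No genome of this build was used, so no sequences or genes are given.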

Additional observations from a re-analysis of the deposited data

Results flagged for a closer look

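X chromosome windows lie outside the autosomal selection, and 34 of them met the same limits of depth, level and CpG number, of 66 deep X windows. Their summed level was 16.5% in Bull1 and 17.5% in Bull2, and 15 of the 34 were higher in Bull1. In 21 of them a run of CpG distances was the same as in an autosomal member. They are listed because they lie outside the autosomal windows compared above, and X sites entered only the Fisher test over all sites. No test set them apart from the autosomal members, and there were no control samples to set them against.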

How the results depend on the processing

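No paired analysis was possible because there is 1 library per bull. The number of windows was 2642 with at least 100 reads per site, 487 with at least 500, and 571 with a level under 20%. The 5 other limits gave 889 to 1460, the 889 with the median in place of the mean depth per site. Depth was uneven within windows: of the 45113 member sites, 36004 (79.8%) had 50 or more reads in both libraries. The difference between the bulls stayed negative in every setting: -0.364 points as a mean of sites, -0.175 with at least 500 reads, -0.0618 as a mean of windows, and -0.215 to -0.237 in the other 3 settings. The share of windows higher in Bull1 was 41.4% to 44.2% in its 4 settings. Called member sites numbered 3 at a false discovery rate of 0.01, 859 against the genome-wide odds ratio and 0 with both libraries thinned to 50 reads, and 6 to 9 in the other 3 settings. The depth ratio was 1.019 as a median over windows and 1.021 with at least 500 reads. The median number of CpG sites was 34 when at least 10 were required. Windows sharing a run numbered 1111 with 4 equal distances and 855 with 10. The level next to members was 26.6% in the second window on each side. The correlation of site levels between the bulls was 0.928 with at least 5 reads and 0.966 with at least 50, so it moved with depth. With 1 library per bull, differences between the animals cannot be told apart from differences between the libraries.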
